A study of Homo sapiens with 6 samples.

Results

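Translation initiation factor genes were followed in A549, a human lung adenocarcinoma line. They were taken as every gene symbol in the tables that begins with EIF1 to EIF6, leaving out the 4 Argonaute genes that carry older EIF2C symbols and EIF2AK2. The rule gave 53 genes of 17787 symbols listed in any library, and 48 of the 53 passed the filter for testing, a level of 1 FPKM or more in 3 or more of the 6 libraries. FPKM counts sequenced fragments scaled to transcript length and to the size of the library, so levels of different genes can be set side by side. The libraries fall into 3 labelled siFOXD3, named for a small interfering RNA against the forkhead transcription factor FOXD3, and 3 labelled siNC, whose genotype label is wild type and which served as the reference for every comparison. All 6 come from the same cell line, and the labels do not say whether the replicates were separate cultures, so p-values measure the spread between these libraries only, which may be technical.

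Initiation factors load the initiator tRNA onto the small ribosomal subunit, bring that subunit to the capped end of a messenger RNA, scan for the start codon and let the large subunit join. The initiator tRNA arrives with eIF2, which needs the exchange factor eIF2B to be recharged with GTP and is switched off by stress-sensing kinases. The cap is bound by eIF4E, which assembles with the scaffold eIF4G and the helicase eIF4A unless a 4E-binding protein, a repressor released by mTOR signalling, occupies it. In carcinoma cells this machinery is known as a target of growth signalling.

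The targeted gene lay near the detection limit. FOXD3 was absent from siFOXD3 replicates 1 and 3 and listed at 0.0749 FPKM in siFOXD3 replicate 2, against 0.152, 0.291 and 0.134 FPKM in siNC replicates 1 to 3. It was too low for the filter. In a fit of all symbols it had a log2 fold change of -0.22 ± 0.063 (SE; adjusted p = 0.0221 by limma with Benjamini-Hochberg adjustment). That fit adds 1 to each FPKM, which flattens the change of so low a gene, and the ratio of the mean FPKM was 0.13. With values so near 0, neither figure measures well how far FOXD3 was reduced. The protocol label speaks of retina, while the cell labels name A549. All 5 epithelial markers examined were present, with summed levels of 7573 to 7668 FPKM in siFOXD3 and 5751 to 6442 FPKM in siNC, and none of the 6 photoreceptor markers listed (of 9 sought) reached 1 FPKM in any library. Of the alveolar markers of lung, NKX2-1 alone reached 1 FPKM, and SFTPB was listed in no library. Of 5 leukocyte markers, CSF1R alone reached 1 FPKM, at 2.50 to 3.02 FPKM in siFOXD3 and 4.10 to 4.93 FPKM in siNC, and of the 3 fibroblast markers listed (of 5 sought) COL1A1 alone did. The files do not state depth; spacing of the lowest values put it at about 7600000 to 8650000 fragments in each library.

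The initiation factor genes moved in both directions, also within eIF2, eIF3 and the cap-binding genes. Of the 48 tested, 22 were called higher in siFOXD3 (45.8%, where 27.2% of all 12555 genes tested were called higher), 15 were called lower (31.2%, where 38.7% of all genes were), and 11 were not called. A gene is called here at a Benjamini-Hochberg adjusted p under 0.05 in a limma fit across all genes tested, on log2(FPKM + 1), which understates the change of low genes. For 43 of the 48, no siFOXD3 value fell within the range of siNC or the reverse, and the same held for 70.7% of all genes tested. The largest rise was that of EIF4G2 (log2 fold change 1.17), which 0.916% of all genes tested matched or exceeded, and the largest fall that of EIF4A2 (-1.02), matched or exceeded by 5.67%. Together the 53 genes summed to 6760, 6829 and 6775 FPKM in siFOXD3 and to 6365, 6473 and 6497 FPKM in siNC, a ratio of 1.05.

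**Figure D1:**
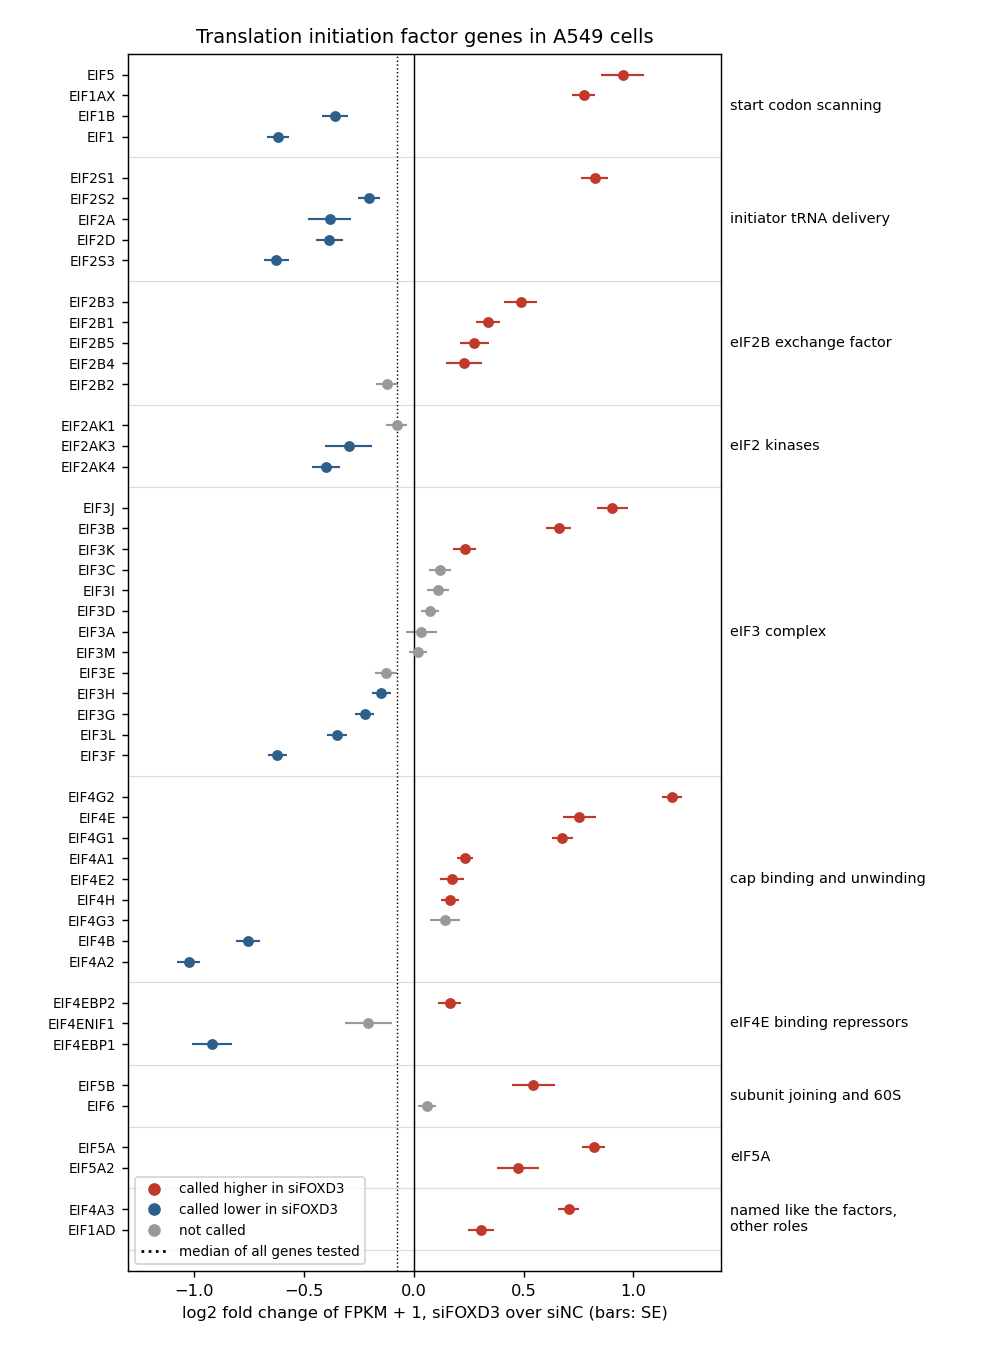
Log2 fold change of FPKM + 1 (horizontal axis, siFOXD3 over siNC, bars are SE) for each of the 48 tested genes, grouped by role. Red points were called higher, blue points lower and grey points neither; the dotted line is the median of all genes tested, -0.08. Scanning, tRNA delivery, eIF3, cap binding and the eIF4E repressors each hold both red and blue points.

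The median log2 fold change of the 48 genes was 0.11, against -0.08 for all genes tested. With quantile normalization, which moved the all-gene median by 0.10, the members' median was 0.05 against 0.03 for all genes. Under it, 19 of the 48 members were called higher and 17 lower. Of all 12555 genes tested, 4255 were then called higher and 3835 lower, so more genes rose than fell. Of all called genes, 47.4% were lower after quantile normalization and 58.7% as deposited. No called initiation factor gene turned its direction under any of the 15 alternative settings, and 30 of the 37 kept their call under all of them. FPKM is a share of the RNA in a library, so a change in total RNA per cell cannot be told apart from a change of the other genes.

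The first transcribed bases of the genes were compared next. Messages that open with a C followed by a run of pyrimidines, the terminal oligopyrimidine (TOP) class, are known to encode ribosomal proteins and elongation factors, to be bound at that start by LARP1 and to be translated under mTOR control. RefSeq promoter windows (GRCh38.p14, 250 bases before to 50 after each annotated start) were matched by symbol to 44 of the 53 genes. EIF2AK1, EIF2S2, EIF3A, EIF3CL, EIF3E, EIF3G, EIF3H, EIF3L and EIF4EBP1 had no entry. Of these, 8 were tested: 5 were called lower (EIF2S2, EIF3G, EIF3H, EIF3L and EIF4EBP1), none higher and 3 not called, so 5 of the 15 genes that fell have no start to compare. A C followed by at least 4 pyrimidines stood at an annotated start of 9 of these 44 genes (20.5%), against 7.51% of the tested genes with a window and 4.07% of all 35116 windows, a motif sought on the transcribed strand only and chosen after the fold changes were known. Their starts are shown with 15 bases on either side, and the capitals mark the pyrimidine run from the first transcribed base.

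EIF4A2 (chr3:186783562-186783591, + strand): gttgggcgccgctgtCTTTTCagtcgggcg
EIF4B (chr12:53006441-53006470, + strand): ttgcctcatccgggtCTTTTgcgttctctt
EIF2S3 (chrX:24054941-24054970, + strand): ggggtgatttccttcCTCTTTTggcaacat
EIF3F (chr11:7987322-7987351, + strand): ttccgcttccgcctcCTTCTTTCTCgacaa
EIF2D (chr1:206612451-206612480, - strand): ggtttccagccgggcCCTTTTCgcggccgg
EIF2A (chr3:150546772-150546801, + strand): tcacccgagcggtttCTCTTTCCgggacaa
EIF3M (chr11:32583816-32583845, + strand): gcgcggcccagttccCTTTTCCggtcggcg
EIF3D (chr22:36529152-36529181, - strand): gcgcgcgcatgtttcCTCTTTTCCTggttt
EIF3K (chr19:38619173-38619202, + strand): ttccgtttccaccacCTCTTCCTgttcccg

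Of these 9 genes, 6 were called lower (EIF4A2, EIF4B, EIF2S3, EIF3F, EIF2D and EIF2A), EIF3K was called higher, and EIF3M and EIF3D were not called, with a median log2 fold change of -0.38. Of the 31 other tested genes with a window, 21 were called higher and 4 lower, with a median of 0.28. Only 78.3% of all genes tested had a window, too few for a check over all genes; among those 9833, the 738 genes with such a start were called lower in 53.4% and higher in 19.1%, and of the 9095 genes without it 3322 (36.5%) were called lower and 2637 higher. Of 47 cytosolic ribosomal protein genes with such a start, 38 were called lower (80.9%), with a median of -0.23. The 682 other genes with such a start, initiation factors left out, were called lower in 51.3%, with a median of -0.22. Ribosomal protein genes without such a start are not given here, so the start and the gene class cannot be told apart. These counts describe the windows and were not tested, and a match is a run of letters, not a measured start.

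**Figure D2:**
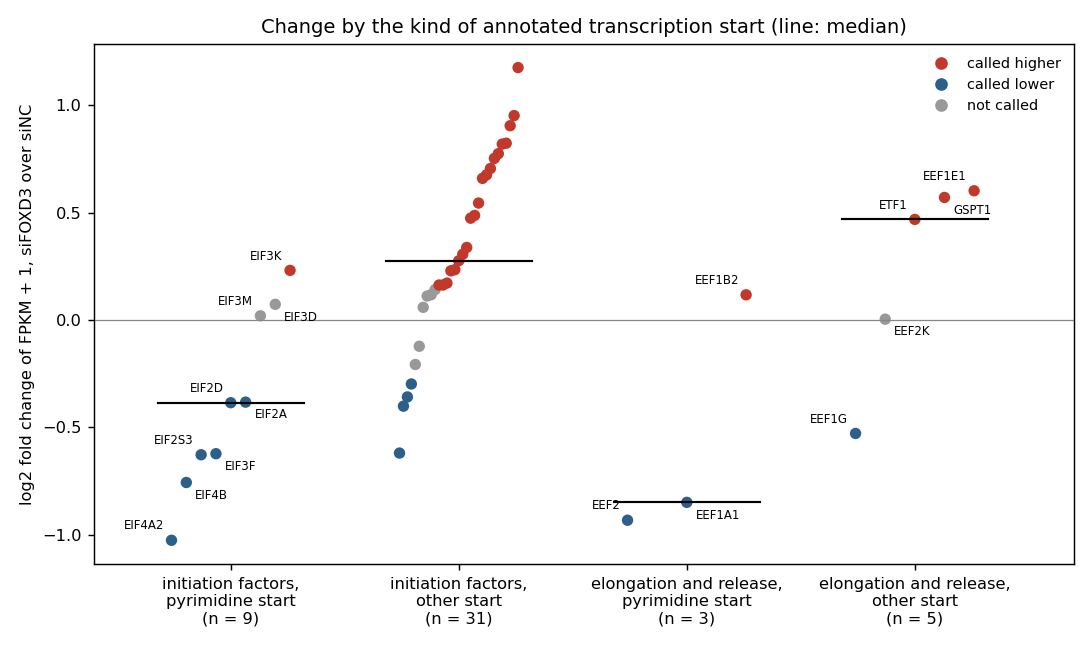
Log2 fold change of FPKM + 1 (vertical axis, siFOXD3 over siNC) of initiation factor genes and of elongation and release factor genes, split by whether an annotated start is a C followed by at least 4 pyrimidines; lines are medians. Initiation factor genes with such a start have a median of -0.38 and the others 0.28.

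Among the factors that scan for the start codon, EIF5 and EIF1AX rose while EIF1 and EIF1B fell. In the values that follow, libraries are given in the order of replicates 1 to 3. EIF5, which makes eIF2 hydrolyse its GTP at the start codon, was at 178, 181 and 174 FPKM in siFOXD3, against 75.8, 105 and 95.8 FPKM in siNC, where replicate 1 was the lowest. EIF1AX, which holds the scanning complex open, was at 67.7, 72.0 and 68.1 FPKM in siFOXD3 and at 39.6, 41.9 and 38.8 FPKM in siNC. The siFOXD3 libraries were above every siNC library for both genes, with log2 fold changes of 0.95 ± 0.097 for EIF5 and 0.77 ± 0.052 for EIF1AX (SE; adjusted p = 1.3e-05 and 8.3e-07 by limma with Benjamini-Hochberg adjustment).

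EIF1, which rejects wrong start codons and opposes eIF5, was at 267, 271 and 273 FPKM in siFOXD3, against 389, 429 and 430 FPKM in siNC. Its close relative EIF1B was at 39.5, 43.5 and 39.1 FPKM in siFOXD3, against 51.7, 50.3 and 55.2 FPKM in siNC. Both were lower in every siFOXD3 library than in any siNC library, EIF1 by a log2 fold change of -0.62 ± 0.048 and EIF1B by -0.36 ± 0.060 (SE; adjusted p = 2.12e-06 and 0.000409 by limma with Benjamini-Hochberg adjustment). The sum of EIF1 and EIF1B averaged 311 ± 3.96 FPKM in siFOXD3 and 468 ± 24.1 FPKM in siNC (SD, n = 3 each).

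The subunits of eIF2 parted. EIF2S1, the alpha subunit whose phosphorylation shuts initiation down, was at 55.6, 54.0 and 61.8 FPKM in siFOXD3, against 32.6, 32.7 and 30.2 FPKM in siNC. EIF2S3, the gamma subunit that binds GTP and the tRNA, was at 139, 138 and 146 FPKM in siFOXD3, against 200, 224 and 231 FPKM in siNC. For neither gene did the groups overlap, and they moved in opposite directions, with log2 fold changes of 0.82 ± 0.064 for EIF2S1 and -0.63 ± 0.057 for EIF2S3 (SE; adjusted p = 2.04e-06 and 6.33e-06 by limma with Benjamini-Hochberg adjustment). EIF2S2, the beta subunit, fell by less, to 92.3 ± 1.42 FPKM in siFOXD3, against 107 ± 6.03 FPKM in siNC (log2 fold change -0.20). The alpha message stood at 0.400, 0.390 and 0.425 times the gamma message in siFOXD3, against 0.163, 0.146 and 0.131 times in siNC, a ratio formed after the values were seen.

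EIF2D and EIF2A, which can bring a tRNA without eIF2, fell. EIF2D, which works in re-initiation, was at 32.7, 36.0 and 35.2 FPKM in siFOXD3, against 45.0, 43.3 and 48.3 FPKM in siNC. EIF2A, a separate protein from the alpha subunit, averaged 34.2 ± 1.61 FPKM in siFOXD3 and 45.2 ± 6.92 FPKM in siNC (SD, n = 3 each), with siNC replicate 1 (37.2 FPKM) nearest to the siFOXD3 libraries. Their log2 fold changes were -0.38 each (SE 0.060 and 0.098; adjusted p = 0.000266 and 0.00588 by limma with Benjamini-Hochberg adjustment). DENR and MCTS1, which act as a pair in place of eIF2D, rose, by log2 fold changes of 0.45 ± 0.053 and 0.30 ± 0.061 (SE; adjusted p = 3.57e-05 and 0.00145 by limma with Benjamini-Hochberg adjustment), and were named after their values were seen.

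Of the 5 genes for eIF2B, 4 were called higher (80.0%, where 27.2% of all genes tested were). EIF2B2 was not called although every siFOXD3 library lay below every siNC library. EIF2B3, a subunit of the catalytic part, changed most: it was at 16.6, 15.3 and 17.0 FPKM in siFOXD3, against 12.2, 10.5 and 11.4 FPKM in siNC, with no overlap (log2 fold change 0.49 ± 0.075; adjusted p = 0.00024 by limma with Benjamini-Hochberg adjustment). EIF2B1, a regulatory subunit, averaged 35.7 ± 0.917 FPKM in siFOXD3 and 28.1 ± 1.16 FPKM in siNC, and EIF2B5, the catalytic subunit, 22.6 ± 0.468 and 18.5 ± 1.53 FPKM. EIF2B4 averaged 14.0 ± 1.49 FPKM in siFOXD3 and 11.8 ± 0.496 FPKM in siNC. Its adjusted p by limma with Benjamini-Hochberg adjustment was 0.031. Leaving out siFOXD3 replicate 2 or 3 made it 0.088 or 0.133, leaving out siNC replicate 1 or 2 made it 0.0617 or 0.0686, and with no filter it was 0.0507. EIF2B2, the most abundant message of the complex, was at 70.8 ± 2.30 FPKM in siFOXD3 and 77.1 ± 3.51 FPKM in siNC and was not called (adjusted p = 0.059 by limma with Benjamini-Hochberg adjustment, against 0.045 without siNC replicate 3 and 0.0079 with quantile normalization).

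Among the eIF2 kinases, EIF2AK4 (GCN2, which senses amino acid shortage) was at 9.08, 8.81 and 9.43 FPKM in siFOXD3, against 12.5, 12.3 and 12.3 FPKM in siNC. The groups did not overlap, and the log2 fold change was -0.40 ± 0.065 (SE; adjusted p = 0.000336 by limma with Benjamini-Hochberg adjustment). EIF2AK3 (PERK, which senses misfolded protein in the endoplasmic reticulum) averaged 4.15 ± 0.248 FPKM in siFOXD3 and 5.36 ± 0.780 FPKM in siNC. Its adjusted p by limma with Benjamini-Hochberg adjustment was 0.0288. Leaving out siFOXD3 replicate 1 or 2 made it 0.0912 or 0.0652, and leaving out siNC replicate 2 or 3 made it 0.113 or 0.0785. It was 0.0519 with median-of-ratios scaling and 0.533 with quantile normalization. EIF2AK1 (HRI, which senses heme) was at 51.4 ± 0.411 FPKM in siFOXD3 and 54.4 ± 1.94 FPKM in siNC and was called with quantile normalization only (adjusted p = 0.0193 by limma with Benjamini-Hochberg adjustment, against 0.177).

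The eIF3 complex, which coats the small subunit and recruits the messenger RNA, had 3 genes called higher, 4 lower and 6 not called among 13 tested. These are 23.1% higher and 30.8% lower, where 27.2% of all genes tested were called higher and 38.7% lower. The median log2 fold change of the 13 was 0.03. EIF3J, a loosely bound subunit that sits in the mRNA entry channel, was at 50.3, 48.0 and 48.8 FPKM in siFOXD3, against 22.9, 27.6 and 26.9 FPKM in siNC. EIF3B, the scaffold that carries EIF3G and EIF3I, averaged 135 ± 3.16 FPKM in siFOXD3 and 85.3 ± 5.63 FPKM in siNC (SD, n = 3 each). EIF3K averaged 248 ± 7.29 FPKM in siFOXD3 and 211 ± 11.9 FPKM in siNC. These were the subunits called higher, with log2 fold changes of 0.90 ± 0.070, 0.66 ± 0.055 and 0.23 ± 0.051 (SE; adjusted p = 2.11e-06, 3.52e-06 and 0.00242 by limma with Benjamini-Hochberg adjustment).

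EIF3F, a subunit of the octameric core, fell most: it was at 99.4, 96.3 and 96.1 FPKM in siFOXD3, against 147, 151 and 153 FPKM in siNC, without overlap (log2 fold change -0.62 ± 0.044; adjusted p = 1.07e-06 by limma with Benjamini-Hochberg adjustment). EIF3L fell to 189 ± 3.61 FPKM in siFOXD3, against 241 ± 10.6 FPKM in siNC, and EIF3G, an RNA-binding subunit, to 130 ± 1.49 against 152 ± 1.07 FPKM. EIF3H fell by 0.15 on the log2 scale and lost its call with median-of-ratios scaling (-0.09, adjusted p = 0.0973 by limma with Benjamini-Hochberg adjustment). EIF3E, EIF3F and EIF3H are known TOP messages, a list chosen with earlier results of these data known, and EIF3E averaged 347 ± 6.67 FPKM in siFOXD3 and 380 ± 24.0 FPKM in siNC. It missed the threshold narrowly (adjusted p = 0.0507 by limma with Benjamini-Hochberg adjustment), and passed it without siNC replicate 1 (0.00105), with quantile normalization (0.00795) and with the replicate number as a block (0.0364).

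The eIF3 subunits that were not called differed little in level. EIF3A, the largest scaffold subunit, was at 73.7, 73.3 and 72.9 FPKM in siFOXD3, against 63.1, 76.4 and 76.0 FPKM in siNC, where replicate 1 stood below the others. EIF3M averaged 277 ± 5.67 FPKM in siFOXD3 and 273 ± 6.31 FPKM in siNC, and EIF3D, which can bind caps itself, 195 ± 1.76 and 186 ± 3.89 FPKM. EIF3I averaged 284 ± 6.26 FPKM in siFOXD3 and 263 ± 15.2 FPKM in siNC; it was called without siNC replicate 1 (adjusted p = 0.00282 by limma with Benjamini-Hochberg adjustment) and with median-of-ratios scaling (0.0201). EIF3C averaged 95.0 ± 1.51 FPKM in siFOXD3 and 87.5 ± 4.20 FPKM in siNC, without overlap. EIF3C and its near-identical copy EIF3CL each sat on several rows per library, which were summed, so the split of reads between them is uncertain; EIF3CL was at 0.784 FPKM or less. EIF3C was likewise called without siNC replicate 1 (adjusted p = 0.0244 by limma with Benjamini-Hochberg adjustment) and with median-of-ratios scaling (0.0137), and EIF3D with that scaling (0.0235).

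**Figure D3:**
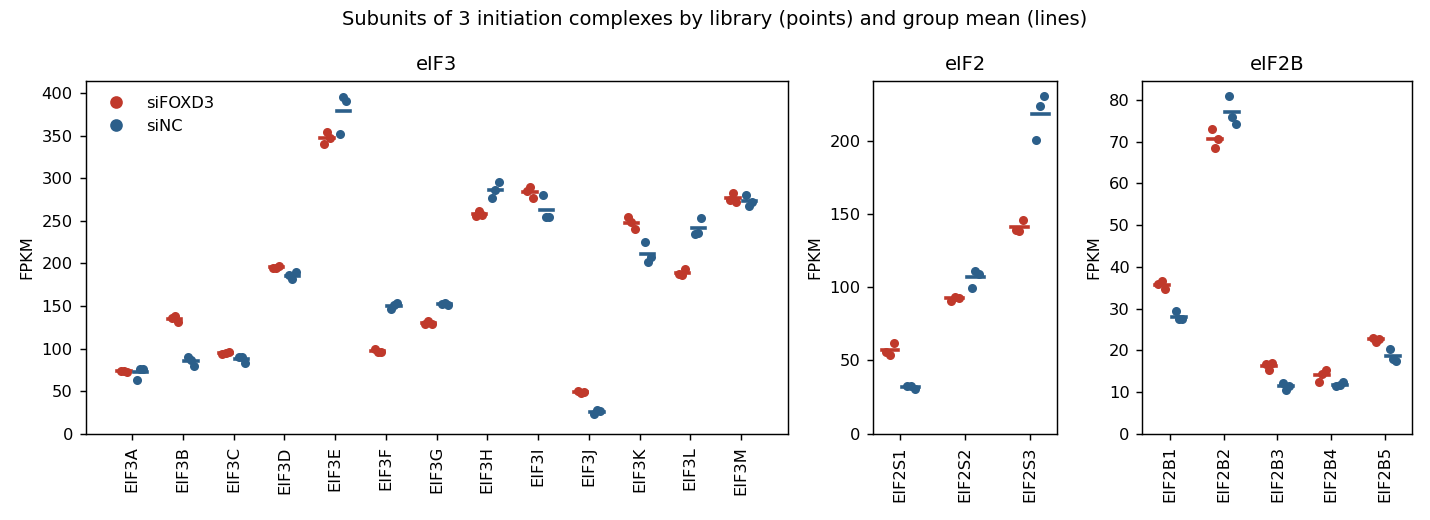
FPKM (vertical axis) of the tested subunits of eIF3, eIF2 and eIF2B, with each library as a point and the group mean as a line, siFOXD3 red and siNC blue. EIF2S1 is higher and EIF2S3 lower in siFOXD3 within the same complex, and in eIF3 the rises of EIF3B and EIF3J stand beside the falls of EIF3F and EIF3L.

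Among the genes of cap binding and unwinding, the scaffolds EIF4G2 and EIF4G1 rose, and EIF4G3 was not called. EIF4G2 (DAP5), a shortened relative of eIF4G that lacks the site for eIF4E and serves cap-independent initiation, was at 304, 304 and 305 FPKM in siFOXD3, against 137, 139 and 127 FPKM in siNC. EIF4G1, the main scaffold, was at 185, 187 and 184 FPKM in siFOXD3, against 122, 116 and 110 FPKM in siNC. EIF4G3, a less abundant scaffold, was at 21.6, 20.6 and 21.6 FPKM in siFOXD3, against 17.6, 20.5 and 19.5 FPKM in siNC. The siFOXD3 libraries lay above all siNC libraries for each, by a wide margin for EIF4G2 and EIF4G1 and narrowly for EIF4G3. The log2 fold changes were 1.17 ± 0.046 for EIF4G2, 0.68 ± 0.048 for EIF4G1 and 0.14 ± 0.068 for EIF4G3 (SE; adjusted p = 3.62e-08, 1.13e-06 and 0.0887 by limma with Benjamini-Hochberg adjustment). EIF4G3 was called without siNC replicate 2 (adjusted p = 0.0438 by limma with Benjamini-Hochberg adjustment), with median-of-ratios scaling (0.0202) and with quantile normalization (0.041).

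EIF4E, the cap-binding subunit, was at 33.7, 35.3 and 33.4 FPKM in siFOXD3, against 19.5, 22.2 and 18.0 FPKM in siNC, without overlap (log2 fold change 0.75 ± 0.075; adjusted p = 1.12e-05 by limma with Benjamini-Hochberg adjustment). EIF4E2, a cap-binding relative known from repression of selected messages, was the more abundant at 61.6, 66.9 and 63.0 FPKM in siFOXD3 and 59.4, 55.0 and 55.1 FPKM in siNC. Its call (log2 fold change 0.17 ± 0.054; adjusted p = 0.0171 by limma with Benjamini-Hochberg adjustment) was lost when siFOXD3 replicate 2 (0.081), siNC replicate 2 (0.0531) or siNC replicate 3 (0.0529) was left out, and with quantile normalization (0.182). EIF4E3 was too low to be tested, at 0.228, 0.267 and 0.174 FPKM in siFOXD3, against 0.791, 0.467 and 0.539 FPKM in siNC, where every library was higher. EIF4E1B, known from oocytes, stayed at 0.467 FPKM or less.

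The hexamer CACGTG, an E-box that reads the same on both strands and is a known site of MYC and related factors, lay in the window of 11 of the 44 genes (25.0%). It lay in 7.26% of all windows and in 12.7% of the tested genes with a window, a set that covers under 80% of the genes tested. Of the 10 tested genes with it, 7 were called higher (EIF4E, EIF4G1, EIF5A2, EIF2B3, EIF4A3, EIF4H and EIF3K) and 3 lower (EIF1B, EIF3F and EIF4B), and of the 30 without it 15 were called higher and 7 lower. Of the 1247 genes tested that have the E-box, 32.2% were called higher and 35.2% lower, with a median log2 fold change of -0.04, and of the 8586 without it 27.7% were called higher and 38.2% lower. The windows of EIF4E, EIF4G1 and EIF5A2 held a pair of E-boxes each. These stretches are shown because all of these genes rose, a choice made by outcome. The windows of EIF1B, EIF3F and EIF4B, which fell, held the E-box at -54, -68 and -22 from the annotated start and are not shown. Capitals mark CACGTG, and the stretches were read from RefSeq (GRCh38.p14).

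EIF4E (chr4:98929190-98929368, - strand): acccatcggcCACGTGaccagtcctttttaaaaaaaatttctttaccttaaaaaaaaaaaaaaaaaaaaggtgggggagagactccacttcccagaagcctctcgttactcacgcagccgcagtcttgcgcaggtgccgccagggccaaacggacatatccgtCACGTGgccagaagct
EIF4G1 (chr3:184314452-184314554, + strand): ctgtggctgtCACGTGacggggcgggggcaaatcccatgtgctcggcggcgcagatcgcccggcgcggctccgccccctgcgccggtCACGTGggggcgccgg
EIF5A2 (chr3:170908784-170908834, - strand): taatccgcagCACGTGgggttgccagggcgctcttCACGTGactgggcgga

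Counted from the annotated start, the hexamers begin at -225 and -72 in EIF4E, at -144 and -67 in EIF4G1 and at -187 and -162 in EIF5A2. A forkhead core, TGTTTAC on either strand, was found in the window of EIF3D alone (2.27% of the 44 genes). It lay in 3.42% of all windows and in 3.44% of the tested genes with a window. These are descriptions of letters in windows and were not tested.

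The helicase paralogs moved apart. EIF4A1 was at 676, 690 and 674 FPKM in siFOXD3, against 577, 581 and 577 FPKM in siNC. EIF4A2, whose start is among the pyrimidine runs shown, was at 188, 195 and 199 FPKM in siFOXD3, against 371, 400 and 417 FPKM in siNC. Every siFOXD3 library was above every siNC library for EIF4A1 and below for EIF4A2, with log2 fold changes of 0.23 ± 0.036 and -1.02 ± 0.052 (SE; adjusted p = 0.000222 and 1.36e-07 by limma with Benjamini-Hochberg adjustment). Of the summed eIF4A message, EIF4A2 made up 21.8% to 22.8% in siFOXD3 and 39.1% to 42.0% in siNC, and the sum was 874 ± 10.8 FPKM in siFOXD3 and 974 ± 24.0 FPKM in siNC (SD, n = 3 each). With quantile normalization EIF4A1 was not called (adjusted p = 0.0847 by limma with Benjamini-Hochberg adjustment).

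EIF4B and EIF4H, related cofactors that stimulate the helicase, also differed in direction. EIF4B was at 147, 142 and 151 FPKM in siFOXD3, against 233, 248 and 265 FPKM in siNC, so that no siFOXD3 library reached any siNC library. EIF4H averaged 267 ± 3.06 FPKM in siFOXD3 and 238 ± 5.52 FPKM in siNC (SD, n = 3 each). The log2 fold changes were -0.76 ± 0.055 for EIF4B and 0.16 ± 0.041 for EIF4H (SE; adjusted p = 1.27e-06 and 0.00511 by limma with Benjamini-Hochberg adjustment), and EIF4H was not called with quantile normalization (adjusted p = 0.126).

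Of the repressors that compete for eIF4E, EIF4EBP1 fell and EIF4EBP2 rose slightly. EIF4EBP1 was at 46.4, 51.3 and 60.2 FPKM in siFOXD3, against 91.5, 109 and 99.9 FPKM in siNC. EIF4EBP2 was at 43.8, 43.5 and 47.3 FPKM in siFOXD3, against 40.8, 38.9 and 40.1 FPKM in siNC. Neither gene's groups overlapped, and the log2 fold changes were -0.92 ± 0.091 and 0.16 ± 0.054 (SE; adjusted p = 1.12e-05 and 0.0209 by limma with Benjamini-Hochberg adjustment). EIF4EBP2 lost its call without siFOXD3 replicate 3 (adjusted p = 0.101 by limma with Benjamini-Hochberg adjustment), without siNC replicate 2 (0.062) and with quantile normalization (0.0645). EIF4EBP1 stood at 1.38, 1.45 and 1.80 times the level of EIF4E in siFOXD3, against 4.70, 4.88 and 5.55 times in siNC, a ratio formed after the values were seen. EIF4EBP3 was at 1.02 FPKM in siFOXD3 replicate 3 and 0.514 FPKM in siNC replicate 3 and effectively at 0 elsewhere. EIF4ENIF1, which carries eIF4E into the nucleus, averaged 3.34 ± 0.379 FPKM in siFOXD3 and 4.01 ± 0.447 FPKM in siNC and was not called, except without siNC replicate 1 (adjusted p = 0.0407 by limma with Benjamini-Hochberg adjustment).

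Both tested genes for eIF5A rose. EIF5A, which helps ribosomes through difficult peptide bonds and is the carrier of the modified residue hypusine, was at 913, 920 and 892 FPKM in siFOXD3, against 561, 494 and 492 FPKM in siNC. EIF5A2, its rarer paralog, was at 8.47, 8.24 and 9.66 FPKM in siFOXD3, against 5.76, 6.85 and 5.56 FPKM in siNC. No siFOXD3 value of either gene was as low as a siNC value, and the log2 fold changes were 0.82 ± 0.053 and 0.47 ± 0.095 (SE; adjusted p = 6.44e-07 and 0.0013 by limma with Benjamini-Hochberg adjustment). EIF5AL1, a near copy of EIF5A, stayed at 0.0993 FPKM or less.

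Of the factors of the last steps, EIF5B, the GTPase that joins the large subunit, was at 50.6, 48.5 and 51.7 FPKM in siFOXD3, against 28.3, 37.3 and 37.6 FPKM in siNC. Replicate 1 was the lowest siNC library, the groups did not overlap, and the log2 fold change was 0.54 ± 0.096 (SE; adjusted p = 0.000584 by limma with Benjamini-Hochberg adjustment). EIF6, which keeps free large subunits apart, was at 195 ± 4.41 FPKM in siFOXD3 and 187 ± 1.15 FPKM in siNC and was called with median-of-ratios scaling only (adjusted p = 0.0341 by limma with Benjamini-Hochberg adjustment, against 0.23). Genes that share the name but act elsewhere both rose. EIF4A3, the helicase of the exon junction complex, was at 87.8, 83.2 and 83.9 FPKM in siFOXD3, against 51.3, 52.9 and 51.0 FPKM in siNC. EIF1AD averaged 22.1 ± 0.741 FPKM in siFOXD3 and 17.7 ± 0.470 FPKM in siNC. Every siFOXD3 library exceeded every siNC library for both, with log2 fold changes of 0.71 ± 0.047 for EIF4A3 and 0.31 ± 0.058 for EIF1AD (SE; adjusted p = 7.82e-07 and 0.000952 by limma with Benjamini-Hochberg adjustment).

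Whether paralogs changed unequally was tested on their log2 ratio within each library, for 8 pairs. The siFOXD3 and siNC ratios did not overlap for any of the 8, each with an exact two-sided permutation p of 0.1. That is the smallest p that 3 libraries against 3 allow and also the value after adjustment over the pairs. The groups did not overlap for 70.7% of all single genes tested either, and no such share was computed for ratios of other gene pairs. EIF4A1 over EIF4A2 averaged 1.81 ± 0.044 in siFOXD3 and 0.55 ± 0.086 in siNC on the log2 scale (SD, n = 3 each), the widest shift at 1.26. EIF4EBP1 over EIF4EBP2 averaged 0.22 ± 0.130 in siFOXD3 and 1.30 ± 0.156 in siNC, a shift of -1.08. The shift of EIF4E over EIF4E3 was 1.13, and it was 1.88 with a pseudocount of 0.1 and 0.75 with a pseudocount of 5, since EIF4E3 is so low.

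The shifts were 0.58 for EIF4E over EIF4E2, 0.53 for EIF4G1 over EIF4G3 and -0.50 for EIF4G1 over EIF4G2, the last because EIF4G2 rose more. EIF1 over EIF1B shifted by -0.26. EIF5A over EIF5A2 shifted by 0.34, but as plain FPKM the ratios overlapped, at 108, 112 and 92.3 in siFOXD3 and 97.3, 72.2 and 88.4 in siNC, and with a pseudocount of 0.1 the exact permutation p was 0.2.

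**Figure D4:**
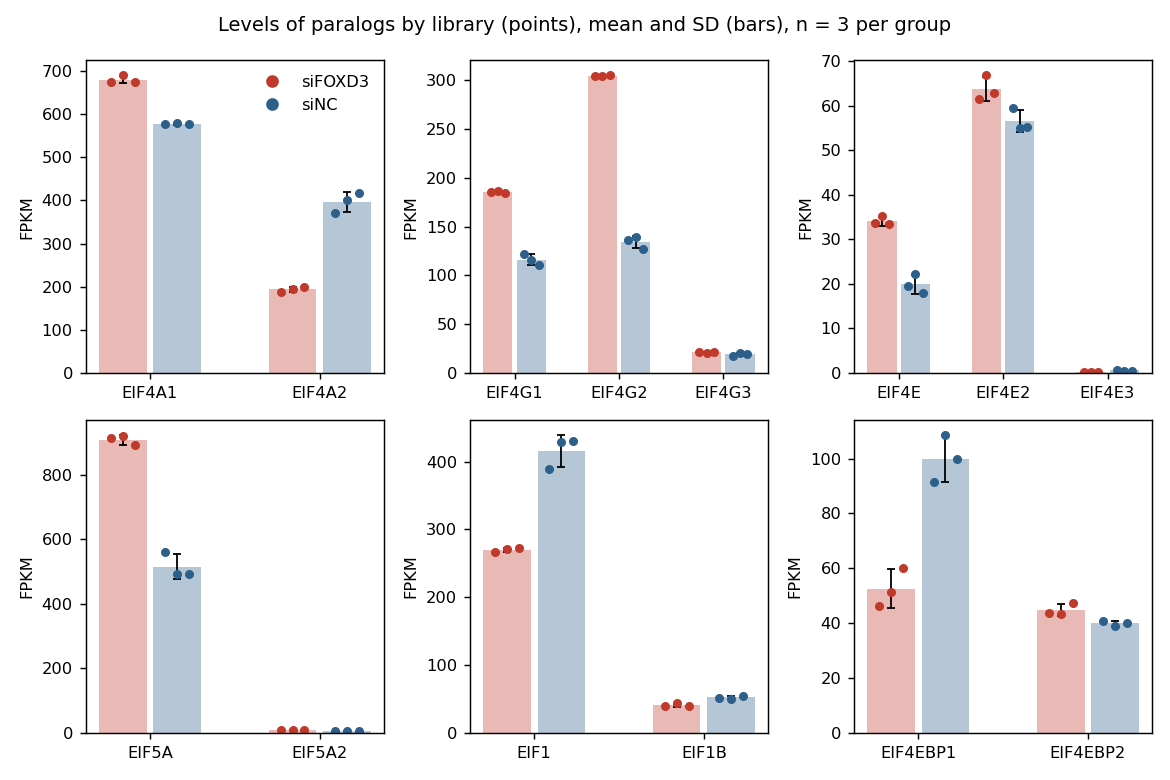
FPKM (vertical axis) of paralogs, with each library as a point, bars at the mean and SD as error bars (n = 3 per group), siFOXD3 red and siNC blue. EIF4A2 and EIF4EBP1 are lower in siFOXD3 while EIF4A1 and EIF4EBP2 are slightly higher, and EIF4G2 and EIF5A are higher.

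Beside the named factors, a list of 32 other initiation factors and regulators was examined, all of them tested: 15 were called higher and 8 lower, with a median log2 fold change of 0.09. These are 46.9% higher and 25.0% lower, where 27.2% of all genes tested were called higher and 38.7% lower. Those that rose most were ABCE1, which splits ribosomes for another round, at 37.6 ± 1.38 FPKM in siFOXD3 and 15.4 ± 0.318 FPKM in siNC (log2 fold change 1.24), DDX3X, a helicase of structured leaders (0.74), and DOHH, which completes hypusine on eIF5A (0.68). DHPS, which starts that modification, was lower, at 39.3 ± 3.16 FPKM in siFOXD3 and 58.2 ± 2.84 FPKM in siNC (-0.56). Those that fell most were PPP1R15A (GADD34), which directs dephosphorylation of eIF2 alpha, at 19.1 ± 0.794 FPKM in siFOXD3 and 50.9 ± 7.04 FPKM in siNC (-1.36), IMPACT, an inhibitor of GCN2 (-0.82), and PDCD4, an inhibitor of eIF4A (-0.77). LARP1, the TOP-binding protein, averaged 88.3 ± 0.783 FPKM in siFOXD3 and 70.1 ± 2.80 FPKM in siNC (0.33), and MTOR rose by 0.64. RPTOR of the same list was not called (-0.19), although every siFOXD3 library lay below every siNC library. Its adjusted p by limma with Benjamini-Hochberg adjustment was 0.06, and 0.0253 without siNC replicate 3. DHPS, LARP1, MTOR and RPTOR were picked after their values were seen.

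Of 10 elongation and release factor genes tested, 4 were called higher and 4 lower, with a median log2 fold change of -0.02. These are 40.0% each, where 27.2% of all genes tested were called higher and 38.7% lower. The falls were of abundant elongation factors: EEF2, which moves the ribosome along, was at 529, 518 and 524 FPKM in siFOXD3, against 961, 1014 and 1026 FPKM in siNC (-0.93), EEF1A1, which delivers charged tRNA, averaged 2996 ± 60.3 FPKM in siFOXD3 and 5406 ± 419 FPKM in siNC (-0.85), and EEF1G, a subunit of its exchange factor, fell by 0.53 on the log2 scale. The rises were of EEF1E1, a subunit of the tRNA synthetase complex (0.60), and of the release factors GSPT1 (0.57) and ETF1 (0.47). EEF1A1, EEF1B2 and EEF2 have the pyrimidine start at an annotated start; the first and the last were called lower, and EEF1B2 was called higher by 0.12 (adjusted p = 0.0221 by limma with Benjamini-Hochberg adjustment). That call was lost when siFOXD3 replicate 1, 2 or 3 (0.0552, 0.108 and 0.0566) or siNC replicate 3 (0.057) was left out, without trend and robust settings (0.0884) and with quantile normalization (0.962).

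Levels of EIF5A, EIF4A1, EIF1AX, EIF2S3 and EEF1A1 are uncertain to the extent that reads are shared with their near copies and processed pseudogenes. Whether strand was used in counting is not given in the sources used here, so overlapping genes cannot be told apart.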

How the data were processed

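Messenger RNA of 6 libraries of A549 cells was sequenced, 3 siFOXD3 and 3 siNC, grouped by sample title. Each deposited table lists FPKM by gene symbol, per the file headers. TopHat, Cufflinks and hg19 are named in the submitters' processing notes. Not given in the sources used here: versions, annotation and strand setting. Rows of a symbol were summed and absent symbols set to 0. Genes with at least 1 FPKM in at least 3 libraries were fitted with limma 3.58.1 in R 4.3.3 on log2(FPKM + 1), with trend and robust settings and no term but group, and p-values were adjusted by Benjamini-Hochberg across the 12555 genes. The fit was tested on simulated data in which few genes changed, so that test does not cover a case where 8278 genes were called. Paralog ratios were tested by exact permutation with scipy 1.17.1 in Python 3.11.15.

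The named genes were fixed by rule: FOXD3, every member by its mean, and, by library, the called member with the largest change in each direction of each role and both members of each paralog pair; of the other lists, up to 3 called genes in each direction. Some other members are also given by library, chosen after their values were seen. Members, roles and lists were chosen with earlier results of these data known, so no list is independent support. Depth was estimated from the spacing of low FPKM among genes that have 1 GENCODE 29 transcript of 700 to 4000 bases and an assumed fragment length of 150 bases, within 2.8% on 6 simulated libraries. The simulated libraries were built with the same assumed length, so the 2.8% does not cover an error in it. Libraries correlated across genes at r = 0.985 to 0.991 within groups and 0.937 to 0.948 between them. Starts and motifs come from RefSeq promoter windows on GRCh38.p14, which is another build than hg19, so only sequences were taken by symbol, and older symbols were matched through RefSeq synonyms. Alternatives were other pseudocounts (0.1 and 5), no filter, a mean of at least 5 FPKM, median-of-ratios scaling, quantile normalization, limma without trend and robust, a replicate block, the largest row of each symbol, and leaving out each library.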

Additional observations from a re-analysis of the deposited data

How the results depend on the processing

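Over 15 alternatives the count of all genes called ranged from 6285 with a mean of at least 5 FPKM, where fewer genes were tested, to 8908 with no filter, against 8278. Initiation factor genes called higher numbered 19 (quantile normalization) to 27 (median-of-ratios scaling), against 22, and those called lower 13 (median-of-ratios scaling) to 17 (quantile normalization and without siNC replicate 1), against 15. The calls over all 12555 genes moved too. They were 4255 higher and 3835 lower with quantile normalization and 3915 and 4383 with median-of-ratios scaling, against 3415 and 4863. The 8 paralog shifts kept their direction under the 10 alternatives run for them (pseudocounts, median-of-ratios scaling, the largest row and each library left out). With quantile normalization 5 uncalled genes changed sign: EIF3A to -0.0247, EIF3D to -0.0391, EIF3M to -0.0864, EIF4ENIF1 to 0.0553 and EIF6 to -0.0424; the cause was not tested. EIF3A ranged from -0.0553 (without siNC replicate 1) to 0.0803 with single libraries left out. Of the 37 called genes, 7 lost their call in at least 1 setting (EIF2AK3, EIF2B4, EIF3H, EIF4A1, EIF4E2, EIF4EBP2 and EIF4H), and 9 uncalled genes gained one.

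Replicate numbers were not shown to pair the libraries: deviations of same-numbered libraries from their group means correlated at 0.0613, 0.163 and 0.115, although each library correlated best with its own number, a hint from the data and not the design. With the replicate block 22 initiation factor genes were called higher and 16 lower, and 8172 genes in all. EIF3CL, EIF4E1B, EIF4E3, EIF4EBP3 and EIF5AL1 were under the filter and have no test.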

Other observations

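The siFOXD3 libraries were closer to each other than the siNC libraries. Over the 48 tested initiation factor genes, the median coefficient of variation of FPKM was 2.67% in siFOXD3 and 5.24% in siNC, and it was smaller in siFOXD3 for 36 genes (75.0%). Over all 12555 genes tested it was 5.71% in siFOXD3 and 7.75% in siNC, and smaller in siFOXD3 for 61.8%. Of the siNC libraries, replicate 1 was the farthest from the group's median for 28 of the 48 genes (58.3%) and for 44.4% of all genes tested. Beside it, replicates 2 and 3 were the farthest for 10 of the 48 each. What sets the libraries apart was not tested.

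Neighbouring enzymes of the hypusine modification of eIF5A parted in the same libraries as EIF5A rose. DOHH was at 8.28, 8.59 and 7.51 FPKM in siFOXD3, against 5.10, 5.66 and 3.50 FPKM in siNC, and DHPS at 41.4, 35.6 and 40.8 FPKM in siFOXD3, against 55.3, 58.4 and 61.0 FPKM in siNC.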
